A study of Homo sapiens with 10 samples.

Results

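The genes described here are 51 protein-coding genes of the DNA damage checkpoint and of DNA replication, chosen by name from the checkpoint kinases, their clamp and mediators, the origin and helicase factors, the replicative polymerases, the sliding clamp with its loader and the single-strand binding protein RPA. They are 51 of 20033 protein-coding genes, and 567 of the 178837 peaks in the deposited peak list lay in their bodies or up to 600 bp past their 3′ ends. The list came from poly(A) 3′-seq of IMR-32, a line derived from a human neuroblastoma. In this assay reads are primed with oligo(dT) and begin at or beside the site where an RNA was cleaved and polyadenylated. Lentiviral shRNAs, selected with puromycin, were directed at the transcriptional kinase CDK12 (sh22 and sh98), at its paralogue CDK13 (sh701 and sh704) or, as the control, at GFP (shGFP). Each of these 5 groups had 2 libraries, 10 in all, all of IMR-32 cells carrying an shRNA vector, and the labels name no other treatment. The authors pooled every library before they called peaks, so each peak has a single value, without a library, a group or a strand. From this list, knockdown and control cells, replicates and batches cannot be compared and the depletion of CDK12 and CDK13 cannot be seen, and each value below describes the pooled cells. The 6 neuroblastoma genes reported as a check (PHOX2A, HAND2, GATA3, DBH, TH and MYCN) each had a peak at a transcript end, and none of the 4 genes of keratinocytes and blood cells (KRT5, KRT14, PTPRC and CD3E) did.

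The checkpoint begins where RPA coats single-stranded DNA and recruits ATR with its partner ATRIP, while ATM responds to double-strand breaks. The 9-1-1 clamp and TOPBP1 activate ATR, claspin passes the signal to the effector kinase CHK1, and the replication machinery, from the origin recognition complex through the MCM helicase to the polymerases, is both the source of the signal and its target. An mRNA of any of these genes is complete only when it is cleaved at its last exon, usually a short way 3′ of the hexamer AATAAA or its variant ATTAAA, and a cleavage site inside an intron would end the RNA early. Oligo(dT) can also prime on a run of A inside an RNA, so the bases just past each peak were read together with the hexamer.

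The sequences that the rest turns on are given first, from GRCh38 on the strand of the gene, 5′ to 3′. They were read from the genome, not from RNA. The 3′ edge of a peak on the gene strand was taken as the approximate cleavage site, and the core hexamer was called when AATAAA or ATTAAA began 10 to 40 bases upstream of that edge. Peaks at transcript ends are shown by their last 30 bases, with the hexamer in capitals, because they give the pattern of the usual cleavage site. These are the 4 highest such peaks outside genes that overlap on the opposite strand, 1 per gene.
MCM7, chr7:100092730-100092759, minus strand: ttccATTAAAacagggttttgtgcgttttt
RFC5, chr12:118032207-118032236, plus strand: ataaactttctttagatgctgttctttata
RPA3, chr7:7636715-7636744, minus strand: ttattAATAAAaactaaaatggtacgtact
TIMELESS, chr12:56417121-56417150, minus strand: ATTAAAcatgtaagattagaagttctcatc
In RFC5 the AATAAA began 31 bases upstream of the edge, so its first base lies just before the bases shown.

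Intronic peaks that resemble this pattern are shown next, with 50 bases before the edge and 10 after it, and again with the hexamer in capitals. They are the 6 highest intronic peaks with a core hexamer and fewer than 7 A in the 10 bases past the edge, again outside genes that overlap on the opposite strand, and they fell in ORC3, ATR, ORC4, CHEK1 and RAD9A.
ORC3, intron 1, chr6:87590780-87590839, plus strand: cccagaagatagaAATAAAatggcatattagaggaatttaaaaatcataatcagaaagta
ATR, intron 21, chr3:142530125-142530184, minus strand: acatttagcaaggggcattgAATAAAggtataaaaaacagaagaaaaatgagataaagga
ORC4, intron 10, chr2:147940155-147940214, minus strand: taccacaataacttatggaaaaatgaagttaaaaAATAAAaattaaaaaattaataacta
CHEK1, chr11:125659179-125659238, plus strand: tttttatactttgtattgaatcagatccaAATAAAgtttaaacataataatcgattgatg
ATR, intron 36, chr3:142470892-142470951, minus strand: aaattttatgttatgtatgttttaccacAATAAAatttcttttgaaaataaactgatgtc
RAD9A, chr11:67331066-67331125, plus strand: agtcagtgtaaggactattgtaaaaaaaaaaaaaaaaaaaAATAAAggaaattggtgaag
The CHEK1 and RAD9A peaks lie in introns of longer annotated transcripts, outside the introns of the canonical transcript (the transcript that Ensembl selects for each gene). A higher peak of this kind in RAD9A, at a pileup of 19, is not shown because it lies under CLCF1 on the opposite strand. The ATR peak in intron 36 also lies within ENSG00000244327, a long noncoding RNA gene annotated on the same strand, and cannot be assigned between them. In ORC4 and in the RAD9A peak shown, the hexamer itself stands in or at the end of a run of A.

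From the highest intronic peaks followed by at least 7 A, outside such overlaps, 3 without a core hexamer are shown for contrast. The 10 bases past the edge are in capitals.
POLE, intron 29, chr12:132654221-132654280, minus strand: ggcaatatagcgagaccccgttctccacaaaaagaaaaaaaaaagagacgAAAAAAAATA
RFC1, intron 12, chr4:39308889-39308948, minus strand: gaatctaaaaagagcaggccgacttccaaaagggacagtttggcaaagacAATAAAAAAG
ATR, intron 16, chr3:142543596-142543655, minus strand: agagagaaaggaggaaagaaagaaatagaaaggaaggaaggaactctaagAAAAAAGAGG
Lacking a core hexamer is thus how these 3 were picked, not a property of the highest A-rich peaks. Another ATR peak in intron 36, at a pileup of 26, is followed by 8 A and is not shown. Its AATAAA begins 36 bases upstream of the edge, and it is higher than the ATR peak in intron 16, at 25. Of the 328 intronic peaks in these genes, 219 were followed by at least 7 A (66.8%, 95% Wilson interval 61.5 to 71.6), 19 of them with a core hexamer as well, and 31 had a core hexamer and fewer A (9.45%, interval 6.74 to 13.1). The remaining 78 had neither feature. Over the intronic peaks of all protein-coding genes the same shares were 66.8% and 8.13%, close to those of the 51 genes. These are shares of a list that still holds peaks of the kind the authors later filtered out, with a long run of A downstream and none of 12 hexamers upstream: 18 of the 328 (5.49%) were such peaks, beside 6.94% over all protein-coding genes.

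Peaks were sorted by gene into 3 classes. A terminal peak had its summit from 200 bp before to 600 bp after the annotated end of any transcript of the gene in GENCODE 44, and other peaks were exonic or intronic. The genes held 133 terminal peaks (23.5% of 567, interval 20.2 to 27.1), 106 exonic peaks (18.7%, 15.7 to 22.1) and 328 intronic peaks (57.8%, 53.7 to 61.8). Over all protein-coding genes the shares were 18.8%, 10.3% and 70.9%. In genes of similar length that have a terminal peak, described further on, they were 24.8%, 12.6% and 62.6%. The exonic share of the 51 genes was above both of these, and the intronic share below both. In every set, the exonic class takes in peaks near the 3′ end of a gene that miss the terminal window. Examples are MCM10, with a pileup of 30 at 99.2% of the body, and MCM6, with 24 at 97.6%. Both have an AATAAA upstream. The intervals cover counting error only, since nothing in the list measures the spread between libraries. A terminal peak, at the end of any annotated transcript, was found in 49 of the 51 genes, beside 68.7% of all protein-coding genes. An intronic peak was found in 47 of 51 (92.2%, interval 81.5 to 96.9), beside 59.4% of all protein-coding genes and 83.6% of the genes of similar length. Neither expression nor length was matched in the shares over all genes, and the 51 genes have a median length of 40.8 kb against 27.5 kb for all protein-coding genes.

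**Figure D1:**
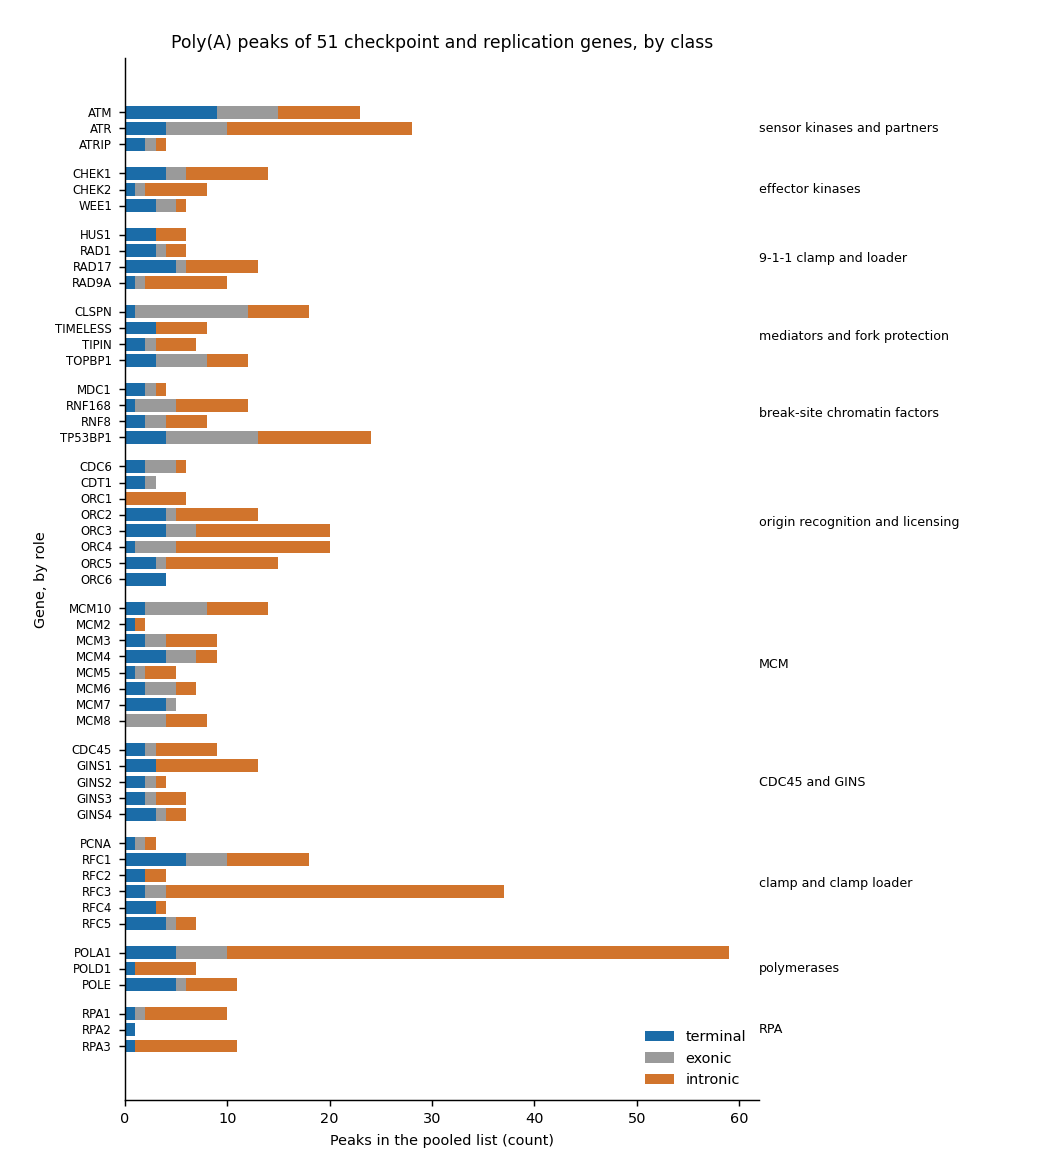
Number of terminal (blue), exonic (grey) and intronic (orange) peaks of each of the 51 genes in the pooled list, ordered by role. POLA1 with 49 and RFC3 with 33 intronic peaks stand out by count, and ORC1 and MCM8 are the genes without a terminal peak.

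The height of a peak is given as the pileup at its summit, which was recovered from the deposited fold and p-value. MACS2 by default keeps 1 read per position and strand, the methods name no other setting, and no pileup in the list exceeds 200, which is the ceiling this sets for both strands at an extension of 100 bp. The pileup was therefore read as a count of distinct read positions over all 10 libraries, not of reads. It compresses differences in height between sites, most at sites where reads begin at few positions, and it does not measure expression. Terminal peaks were the higher class, with a median pileup of 18 (from 4 to 49), against 14 for exonic peaks (5 to 39) and 9 for intronic peaks (4 to 47). GINS2, a subunit of the GINS complex of the replicative helicase, had the highest terminal peak, with a pileup of 49 and a deposited fold of 10.1 over the local background. That peak also lies under GSE1 on the opposite strand, and the list cannot say which gene it belongs to. MCM7, a helicase subunit, and RFC5, a subunit of the clamp loader, followed with 47 each. RPA3, the small RPA subunit, had 46 and TIMELESS, which protects stalled forks, had 45. MCM3, ORC3, GINS3 and RPA2 each reached 42. At the other end of the range, POLD1, the catalytic subunit of polymerase delta, reached only 10 (fold 9.06), MCM5 reached 14 and TOPBP1 reached 15. MCM5 and TOPBP1 also had exonic peaks near the 3′ end of the gene, at 24 and 39, which lie outside the terminal window. The median over the 49 genes of the highest terminal pileup was 28, against 23 over all protein-coding genes with a terminal peak.

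**Figure D2:**
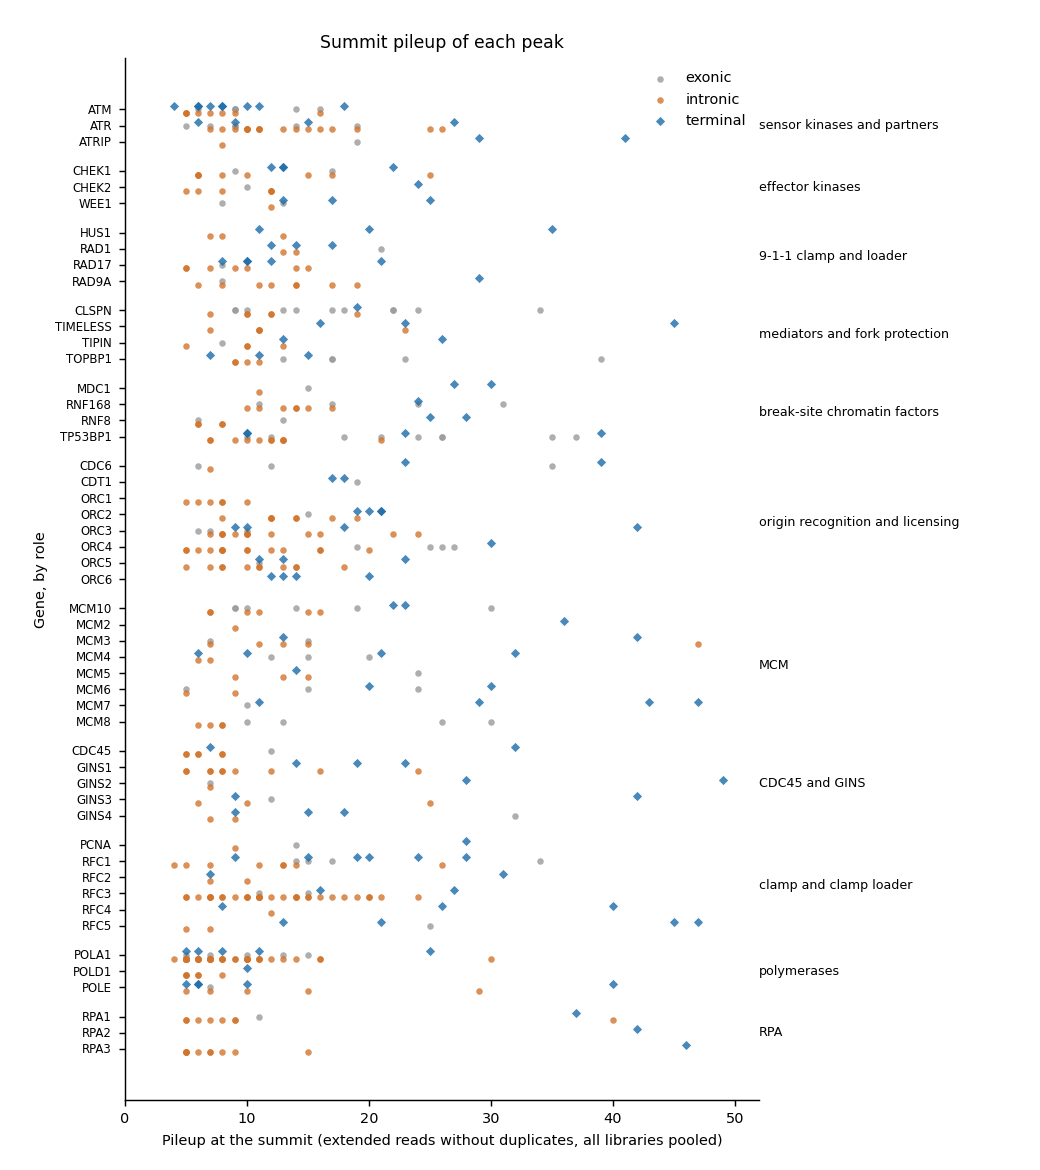
Pileup at the summit (extended reads without duplicates, all libraries pooled) of each terminal (blue diamond), exonic (grey) and intronic (orange) peak of the 51 genes, 1 row per gene. Most genes have their highest value at a transcript end, up to 49 in GINS2, while MCM3 and RPA1 have intronic peaks of 47 and 40.

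Of the 133 terminal peaks, 44 were at the end of the canonical transcript and 89 at the end of another annotated transcript. The 44 belonged to 40 of the 51 genes (78.4%, interval 65.4 to 87.5), beside 86% of the genes of similar length. Among them 1 was followed by at least 7 A (2.27%, interval 0.402 to 11.8), beside 4.86% in genes of similar length. A core hexamer and fewer A were found at 28 (63.6%, interval 48.9 to 76.2), beside 64.9% in genes of similar length. Among the 89 at other ends, 29 were followed by at least 7 A (32.6%, 23.7 to 42.9), and 32 had a core hexamer and fewer A (36.0%, 26.8 to 46.3). The same 2 shares at other ends in genes of similar length were 29.9% and 31.8%. Many of these other ends belong to short transcripts that stop inside the gene: 63 terminal peaks, the canonical ends of CHEK1 and RFC3 included, lay before 90% of the gene body, 26 of them followed by at least 7 A. The count of terminal peaks therefore includes sites inside genes that are followed by A, as the A-rich intronic peaks are. Where a core hexamer was present with fewer than 7 A, it began a median of 26 bases upstream of the edge at the 60 terminal peaks (45 with AATAAA, 15 with ATTAAA) and 21 bases upstream at the 31 intronic peaks (24 and 7). Some core hexamer in that window was found at 48.2% of terminal and 14.0% of intronic peaks over all protein-coding genes. In the 51 genes the shares were 45.9% and 15.2%.

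Longer genes held more intronic peaks, across the 51 genes (Spearman rho 0.87) as across the 13448 protein-coding genes that have both introns and a terminal peak (rho 0.84). These are descriptions across genes, which share the same 10 libraries. Each gene was therefore set beside the 100 other such genes nearest to it in length, 4118 distinct genes for the whole set. The 51 genes had 328 intronic peaks where the means of those genes add up to 291, a ratio of 1.13 (exact Poisson interval 1.01 to 1.26, for counting error only). The ratio was 1.03 (0.925 to 1.15) when the similar genes also had to lie in the same tercile of terminal pileup. It was 1.09 (0.966 to 1.23) without POLA1, the gene with the most intronic peaks. RFC3, with 33 against a mean of 17.0, was not left out in turn, and most of its peaks lie outside its canonical transcript. By gene, 25 exceeded the median of their similar genes, 13 equalled it and 13 were below it. In the similar genes, 64.4% of intronic peaks were followed by at least 7 A and 9.15% had a core hexamer and fewer A. An intronic peak of the latter kind was present in 17 of the 51 genes (33.3%, interval 22 to 47), beside 32.2% of the similar genes and 24.2% of all protein-coding genes. These 17 genes were ATR, CHEK1, WEE1, RAD9A, HUS1, TP53BP1, RNF168, ORC3, ORC4, MCM4, MCM6, GINS1, GINS4, RFC3, POLA1, POLD1 and RPA1.

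**Figure D3:**
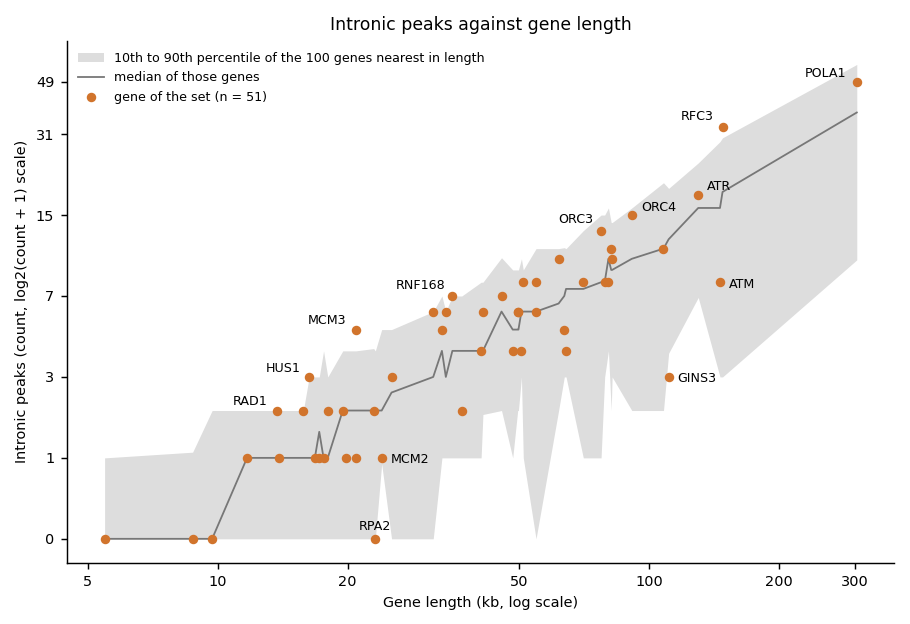
Intronic peaks of the 51 genes (orange) against gene length in kb (log scale), with the median (line) and the 10th to 90th percentile (grey band) of the 100 genes nearest in length to each. MCM3 and RFC3 lie above the band, with 5 and 33 peaks, GINS3 lies below it with 3, and the other genes lie inside it.

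Intronic peaks were spread along the genes. From the 5′ to the 3′ end, successive stretches of 25% of the gene body held 24.7%, 26.2%, 28% and 21% of the 328 peaks, beside 28.1%, 27.0%, 26.2% and 18.6% in the genes of similar length. Intron 1 of the canonical transcript held 31 of the 328 (9.45%, interval 6.74 to 13.1) in the 51 genes and 27.3% in the genes of similar length. If the peaks of each gene were shared among its canonical introns by their length, intron 1 would hold 13% in the 51 genes and 28.8% in the others. Of the 328 peaks, 56 lie outside the canonical introns and cannot fall in intron 1, and 272 lie inside them. The 9.45% counts all 328, so its gap to the 13% should not be read as a shortage in intron 1.

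Among the kinases that sense damage, ATR had 28 peaks, 18 of them intronic, against a mean of 15.2 in genes of similar length (130 kb). These 18 had pileups from 7 to 26 with a median of 11, and the highest terminal peak of ATR was at 27, which says nothing of the numbers of reads behind them. Intron 36, of 15 kb, held 5 of them, intron 21 held 4 and intron 1 held 3. Of the 18, 15 were followed by at least 7 A and 3 had a core hexamer with fewer A, so every intronic peak of ATR had 1 of those features. ATM, which is longer (146 kb), had only 8 intronic peaks, against a mean of 15.8, all 8 followed by at least 7 A. Of its 9 terminal peaks, 8 were at the ends of other transcripts, and 10 of its peaks lie under C11orf65 on the opposite strand. ATRIP, the ATR partner, had 1 intronic peak and a terminal peak at 41 that also lies under SHISA5 and TREX1.

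The effector kinase CHK1 (CHEK1) had 8 intronic peaks against a mean of 5.49 in genes of 51.1 kb. Only 4 of the 8 lie in introns of the canonical transcript, which ends 62.5% along the gene body, where its terminal peak of pileup 22 stood. The highest intronic peak, at 25, lies beyond that end, is followed by 7 A and also falls under ACRV1. CHEK2 had 6 intronic peaks, all of pileup 12 or less, against a mean of 5.99. WEE1, which restrains entry into mitosis, had 1 intronic peak, at 12, and it had a core hexamer with fewer A.

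In the 9-1-1 clamp and its loader, the short genes RAD1 and HUS1 had 2 and 3 intronic peaks where their similar genes averaged 0.86 and 1.44, ratios of 2.33 and 2.08 that rest on these few peaks. In HUS1, 2 of the 3 had a core hexamer with fewer A, in introns 1 and 5. RAD1 had 1 that lies under BRIX1 on the opposite strand. RAD9A had 8 intronic peaks, against a mean of 9.72 at its annotated length of 80.5 kb. Its canonical transcript spans 6.42 kb, and all 8 lie outside it, in introns of 5′-extended annotated transcripts. RAD17, which loads the clamp, had 7, against a mean of 5.94.

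Among mediators and fork protection factors, claspin (CLSPN) differed in class: 11 of its 18 peaks were exonic and 6 intronic. The highest was an exonic peak at 34, near 11.2% of the gene body and followed by 7 A, above its terminal peak at 19. TOPBP1 had 4 intronic peaks against a mean of 7.27, a ratio of 0.55, and its highest peak, at 39, was exonic at 96.1% of the body. TIMELESS had 5 intronic peaks, the highest at 23, and TIPIN, its partner, had 4. None of the 19 intronic peaks of these 4 genes had a core hexamer with fewer A, and 17 were followed by at least 7 A.

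The chromatin factors of double-strand breaks held 23 intronic peaks, against a summed mean of 21.3. 53BP1 (TP53BP1) had 11 intronic and 9 exonic peaks. Its terminal peaks reached 39, and 5 of its peaks lie under TUBGCP4 on the opposite strand. RNF168, a ubiquitin ligase, had 7 intronic peaks against a mean of 3.93, a ratio of 1.78, with pileups up to 17 against 24 at its terminal peak. RNF8, the ligase that acts before it, had 4, with 3 of them in intron 1, and MDC1 had 1.

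Origin recognition and licensing genes held 54 intronic peaks where the means of similar genes add up to 37.4, a ratio of 1.44, and 1.40 without ORC4. The subunits ORC3, ORC4 and ORC5 had 13, 15 and 11, against means of 8.15, 9.50 and 8.60. In ORC4, 7 of the 15 were in intron 1, which is 44.7 kb and makes up 53.3% of its intron length. ORC2 had 8, against a mean of 5.94. ORC1 had 6 intronic peaks, from 5 to 10 in pileup and 4 of them followed by at least 7 A, and no terminal peak. Its similar genes averaged 3.06 intronic peaks, and all of them have a terminal peak because they were selected for it. ORC6 and CDT1, of 8.75 and 5.47 kb, had no intronic peak, and CDC6 had 1. Both terminal peaks of CDT1 also lie under APRT on the opposite strand.

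The MCM genes held 23 intronic peaks against a summed mean of 23.5. MCM3 had the highest intronic peak of all 51 genes, at a pileup of 47 and a fold of 17.1 in intron 13, above its own terminal peak at 42 (fold 15.2). It was followed by 5 A and had no core hexamer. With 5 intronic peaks against a mean of 1.85, MCM3 also had the largest ratio, 2.70, and 6 of its 100 similar genes had at least as many. MCM2 and MCM6 were at the other end, with 1 and 2 intronic peaks (ratios 0.403 and 0.525), and MCM7 had none. MCM2's 2 peaks both lie in genes of both strands. MCM8, which acts in recombination, had no terminal peak. Its highest peaks, at 30 and 26, were exonic at 91.6% and 93.4% of the body, and both lie under MCM8-AS1 on the opposite strand. Another exonic peak, at 13 and 97.9% of the body, had AATAAA 24 bases upstream of its edge and 2 A past it. It lies outside the terminal window and also under MCM8-AS1. All 8 peaks of MCM8 also lie within ENSG00000286235, a readthrough gene on the same strand. MCM5 had 3 intronic peaks, MCM4 2 and MCM10 6.

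CDC45 and the GINS genes, which complete the helicase, had 22 intronic peaks against 25.4. CDC45 had 6 and GINS1 had 10, against means of 4.51 and 6.68, and 4 of the 10 were in intron 5 of GINS1. GINS3 had the second smallest ratio of the genes over 20 kb, 0.243, with 3 peaks against a mean of 12.3. Its annotated body is 111 kb, but the canonical transcript spans 13.7 kb. GINS2 and GINS4 had 1 and 2, and all 6 peaks of GINS4 lie in genes of both strands.

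For the sliding clamp and its loader the ratio was 1.45, with 47 intronic peaks against 32.4, and 0.908 without RFC3. RFC3 had 33 intronic peaks against a mean of 17.0 at 148 kb, and 6 of its 100 similar genes had at least as many. The canonical transcript of RFC3 spans only 19.4 kb: 5 of the 33 lie in its introns, and 28 lie past its end, in introns of a longer annotated transcript. Of the 33, 28 were followed by at least 7 A. Their pileups ran from 5 to 24, against 27 at the canonical end and 16 at the end of the long transcript. RFC1, the large subunit, had 8, with a highest pileup of 26. RFC2 and RFC5 had 2 each and RFC4 and PCNA, the clamp itself, 1 each.

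POLA1, the catalytic subunit of polymerase alpha and the longest of the genes at 303 kb, had 49 intronic peaks against a mean of 35.3, and 26 of its 100 similar genes had at least as many. Introns 26 and 36, of 60.9 and 65.3 kb, held 13 and 14 of them. The pileups ran from 4 to 30 with a median of 7. The highest, in intron 26, and a neighbour at 14 lie on EEF1B2P3, a pseudogene on the opposite strand, and no other peak of POLA1 exceeded 25, the height of its terminal peak. POLE, of polymerase epsilon, had 5 intronic peaks against 7.15, with one at 29 in intron 29. POLD1 had 6 against 3.36, none above a pileup of 8, and its terminal peak also lies within ENSG00000142539, a readthrough gene on the same strand.

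RPA1 had 8 intronic peaks against a mean of 7.27. The highest, in intron 5, stood at 40 (fold 22.7), just above the terminal peak at 37. It was followed by 3 A on the RPA1 strand and preceded by no core hexamer. On the opposite strand, 8 of the 10 bases past its other edge were A. RPA2 had a single peak, the terminal one, where similar genes averaged 2.16 intronic peaks. RPA3 had 10 intronic peaks, all within UMAD1 on the opposite strand. None of the 10 was followed by at least 7 A on the RPA3 strand, and 6 were on the opposite strand. Over the 303 intronic peaks in genes of 1 strand only, 214 had at least 7 A on the strand of the gene and 14 on the other.

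The highest intronic pileup exceeded the highest terminal one in 6 of the 49 genes with a terminal peak (12.2%, interval 5.73 to 24.2), beside 14.8% of the genes of similar length, all of which have one. These were MCM3, RPA1, CHEK1, GINS1, MCM5 and POLA1. In GINS1 the peak in question, at 24 against 23, lies under NINL on the opposite strand. Those of CHEK1 and POLA1 lie under ACRV1 and EEF1B2P3 in the same way. MCM5 had 15 in an intron against 14 in the terminal class. A peak of MCM5 classed as exonic, at 99.2% of the gene body, reached 24, so its place here depends on the terminal window.

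A further 27 genes of the same pathways were counted in the same way. Among them were the primase subunits PRIM1 and PRIM2, the DDK kinase CDC7 with DBF4, and the phosphatases CDC25A, CDC25B and CDC25C. All 27 had a terminal peak, and 20 had an intronic one (74.1%, interval 55.3 to 86.8). Over all protein-coding genes these shares were 68.7% and 59.4%. Their 178 intronic peaks compare with a summed mean of 143 in genes of similar length, a ratio of 1.25, and 11 of the 27 exceeded the median of those genes. PRIM2 alone, of 332 kb, held 60 of the 178 (50 of them followed by at least 7 A). Its similar genes averaged 35.1, so a large part of the difference from 143 lies in this 1 gene. The share of intronic peaks followed by at least 7 A was 70.2%, and the share with a core hexamer and fewer A was 5.06% (9 peaks, interval 2.68 to 9.33). Over all protein-coding genes these were 66.8% and 8.13%.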

How the data were processed

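Poly(A) 3′-seq libraries (QuantSeq 3′ REV) of IMR-32 cells were trimmed by the authors and mapped to GRCh38 with STAR 2.5.1b, and the knockdown libraries were downsampled to the smallest of them and merged. Peaks were called once with MACS2 2.1.1, with reads extended to 100 bp. The authors then dropped peaks that had a run of A downstream (at least 22 of 25 bases, within 50) and none of 12 hexamers within 100 bases upstream. Such peaks, found here from the 3′ edge, remain in the deposited list, and none was removed. The deposited list pools the 10 libraries: it gives no depth or value per library. Its deposited columns hold the fold (a ratio of pileup to local background) and the −log10 p-value and −log10 q-value of the authors' peak caller. The list was annotated with GENCODE 44 on chromosomes 1 to 22, X and Y (178392 peaks), and all peaks fell within the chromosomes of the reference. The pileup is the whole number that gives the deposited fold and p-value together (largest mismatch 0.000168 in −log10 p). Motifs were searched on the strand of the gene. No test was run, since the list gives the groups no values of their own. Coverage tracks that the labels name were not used here. Shares have Wilson intervals. The members and lists were chosen with earlier results of these data known. Genes named were those without a terminal or intronic peak, with the most intronic peaks, the largest or smallest ratio to similar genes (smallest only over 20 kb) or the highest terminal pileup, those under overlapping genes, and at least 2 per role. Others, including the highest exonic peaks, were chosen after their values were seen. Alternatives changed the q-value threshold, peak position, merging, terminal window, transcripts, strand, similar genes, A threshold and motif window. A further neuroblastoma marker and a sequence are not reported here, so the 6 markers are not the whole list. Steps were tested on simulated data. Python 3.11.15, numpy 2.4.6, scipy 1.17.1, pandas 2.3.3, pysam 0.24.0, samtools 1.23.1 and matplotlib 3.10.9 were used.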

Additional observations from a re-analysis of the deposited data

How the results depend on the processing

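The list pools all libraries, so no replicate could be left out. The libraries were brought to a common depth before pooling, and its value is not given in the sources used here. No paired analysis was possible because values per library were not among those used here. With the −log10 q-value threshold raised to 20, the 51 genes held 62 peaks. The terminal share was 56.5%, the intronic share 21.0%, and 30 genes had a terminal and 12 an intronic peak. The ratio to genes of similar length was 1.36 (0.726 to 2.33) with 12 genes above the median. That count repeats the 12 genes with an intronic peak and adds nothing to it. At 5, the intronic share was 52.1% and the ratio 1.05. A terminal window of 100 bp on each side gave a terminal share of 16.2%, and the canonical transcript alone gave 8.76%, with an intronic share of 65.3% and a ratio of 1.08. Matching also on the span of that transcript, an alternative added after seeing the data, gave 1.15. Beside all protein-coding genes with an intron, which include genes without a terminal peak, the ratio was 1.35. With thresholds of 6 and 8 A, 77.7% and 50.9% of intronic peaks were A-rich, and with any of 12 hexamers within 100 bases, 21.0% had a hexamer and fewer than 7 A. The ratio was above 1 under every alternative. Its interval included 1 at both q-value thresholds, with the canonical transcript alone, with genes of 1 strand only (1.12), with 200 similar genes (1.12), with similar terminal pileup (1.03) and without POLA1 (1.09). Merging peaks under 100 bp apart removed 588 peaks of the list, none of them in these genes. Peaks under genes of both strands (64 of 567) cannot be assigned, nor can 14 others that lie within another gene of the same strand.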
